A study of Chlamydomonas reinhardtii with 12 samples.

Results

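The transcriptome of wild-type Chlamydomonas reinhardtii, a unicellular green alga, was compared between high light and standard light. The cells were strain CC-1690, kept at 25 ºC in liquid TAP, a medium that supplies acetate as a carbon source. Light was 50 µmol photons m-2 s-1 for control cultures and 1500 µmol photons m-2 s-1 for high light, with 3 wild-type libraries of each. The series also holds 3 libraries at each light level from vip1-1, a strain deficient in inositol pyrophosphates, which entered the fit and served as a second strain for comparison. The labels call the libraries biological replicates of poly(A) RNA and give neither the length of the exposure nor a batch. Genes were taken if their FPKM (a fragment count scaled to transcript length and library size) was at least 1 in at least 3 of the 6 wild-type libraries, which left 12081 of 17693 genes. At the edge of this rule 830 genes reached an FPKM of 1 in exactly 3 libraries, with a median of their mean FPKM of 1.29, and 645 genes did so in exactly 2 libraries, with a median of 0.909, and were left out.

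Light beyond what photosynthesis can use drives the formation of reactive oxygen species in the chloroplast. Green algae are known to answer it by dissipating absorbed energy as heat, by repairing photosystem II, by adjusting the antenna and by signals from the chloroplast that alter nuclear gene expression. Inositol pyrophosphates are signalling molecules made by kinases of the VIP family and are linked in algae to nutrient and carbon metabolism. The deposited table lists genes by identifier only, and the RefSeq table used here gave no symbol other than the locus tag for any of its 17742 entries. Genes are therefore described by where they are encoded, how abundant their transcripts were, how long they are and which genes lie next to them, and only 4 are given by identifier. Marker genes of the cell type, and the disrupted gene in vip1-1, could not be checked for the same reason.

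High light changed most of the transcriptome. Of the 12081 genes, 5563 (46%) rose and 1669 (13.8%) fell in high light by the limma test on log2(FPKM + 1), at an adjusted p under 0.05. These calls cover 59.9% of the genes tested. The change was at least 2-fold in 2370 of the raised genes and 920 of the lowered ones as deposited, but in 998 higher and 1721 lower genes once each library was centred on its own median. At 8-fold or more 68 genes were higher and 70 lower as deposited, and 39 and 123 after centring. At 16-fold or more 14 were higher and 23 lower as deposited, and 9 and 35 after centring. The median log2 change over all tested genes was 0.41 above 0. After this centring 2871 genes were higher (23.8%) and 3275 lower (27.1%), 50.9% in all. Higher genes thus made up 76.9% of the calls as deposited and 46.7% after centring. No gene was called in opposite directions by the deposited and the centred values, and all 1669 lowered genes were also lower after centring. Centring moves the log2 change of every gene down by the same amount. No lowered gene could thus turn higher, and this is not a check of the calls. The remaining 2692 raised genes were not called after centring. Values below are as deposited unless centring is named. FPKM values are relative to the library, and in bulk RNA fewer cells of a kind and less RNA per cell cannot be told apart.

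Replicates lay close together, and the high light libraries were further apart than the controls. Pearson's r of log2(FPKM + 1) across the tested genes was 0.973 to 0.988 between controls, 0.929 to 0.971 between high light libraries and 0.789 to 0.873 between the groups. The standard deviation over replicates was larger in high light for 73.6% of genes, with a median of 0.25 against 0.13 on the log2 scale. The high light libraries also differed in how far the strongly lowered genes had gone. Among the 70 genes lowered at least 8-fold, centred values were lowest in high light replicate 3 for 52 genes and highest in replicate 2 for 47. With values as deposited both numbers were 35. Among the 68 genes raised at least 8-fold, high light replicate 2 was the lowest high light library for 41 as deposited and for 27 after centring. High light replicate 2 also had the most genes listed at 0 of the 6 libraries, 3289 against 1993 to 2836 in the others. Without this library 7477 genes were called, against 7232 with all libraries.

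The direction of the change differed with how abundant a transcript was, as deposited and after median centring. Centring moves all genes by the same amount, so it leaves differences in log2 change between classes as they were. In the class with a mean FPKM of 256 or more over the 6 libraries, 115 of 237 genes fell (48.5%) and 45 rose (19%), or 154 and 19 after median centring, but 63 were lower and 76 higher after quantile normalization. That scaling by construction gives every library the same distribution of values. Over all genes 13.8% fell and 46% rose as deposited, while quantile normalization gave 2919 lower and 3567 higher of 12081. With that scaling rises outnumbered falls both in this class and over all genes. The median log2 change of this class was -0.46, which was 0.86 below the median of all genes. As deposited, 25 of its 237 genes fell at least 4-fold and 4 rose by that much, against 252 and 372 of all 12081 genes. The class from 16 to 64 FPKM had the opposite balance, with 1140 of 2182 genes higher (52.2%), 294 lower (13.5%) and a median log2 change of 0.53. After centring 32.9% of them were higher and 24.7% lower. From 4 to 16 FPKM 51.2% of 4802 genes rose and 10.9% fell, or 28.2% and 22.6% after centring. Below 4 FPKM 38.6% of 4250 genes rose and 13.9% fell as deposited, but 14.4% were higher and 30.4% lower after centring, on a scale that compresses changes of weakly expressed genes. In the class from 64 to 256 FPKM 279 of 610 genes rose (45.7%) and 146 fell (23.9%) as deposited, but 27.4% were higher and 34.1% lower after centring. The 20 most abundant genes, with mean FPKM from 5822 to 17625, were split into 7 lower, 4 higher and 9 not past the threshold as deposited, and 13 were lower and none higher after centring.

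**Figure D1:**
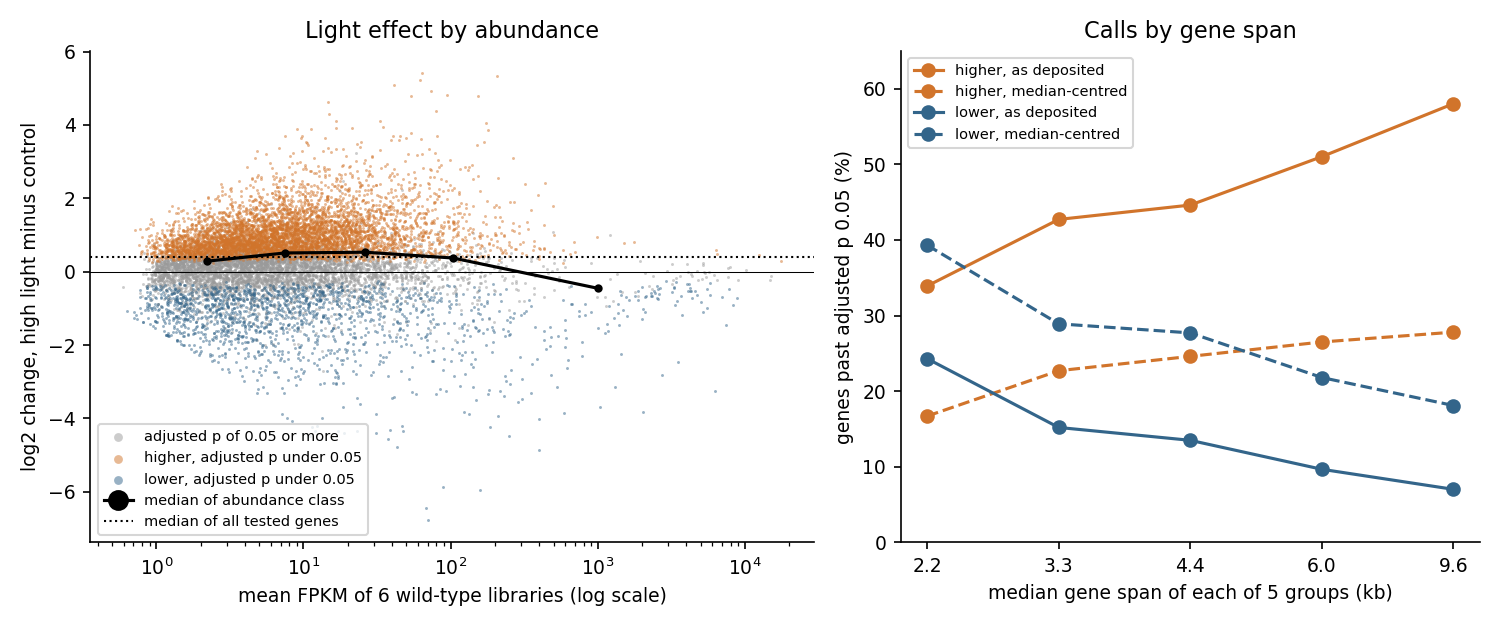
Left, the log2 change of each of the 12081 genes (high light minus control, log2(FPKM + 1)) against its mean FPKM on a log axis, with the median of 5 abundance classes as black points and the median of all genes, 0.41, as a dotted line. Right, the percentage of genes past an adjusted p of 0.05 in 5 groups of about equal size by gene span, which runs from 33.9% to 58% for higher genes and from 24.3% to 7.02% for lower genes as deposited.

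The share of the FPKM total describes this shift again, from the same values and classes as deposited. Shares of 1 total are tied, so a smaller share of 1 class comes with larger shares elsewhere. The 237 genes of the most abundant class held 78.8%, 77% and 77.2% of the total in control replicates 1, 2 and 3, and 67.3%, 70.1% and 66.6% in high light replicates 1, 2 and 3. Every high light library was thus below every control library, at 68% ± 1.9 against 77.7% ± 1 (SD, n = 3). The exact two-sided permutation p was 0.1, the smallest that 3 libraries against 3 allow. The genes from 16 to 64 FPKM went from 7.39% ± 0.29 of the total to 11.6% ± 0.74 (SD, n = 3, exact permutation p = 0.1). Those from 4 to 16 FPKM went from 4.39% ± 0.19 to 7.03% ± 0.82 (SD, n = 3, exact permutation p = 0.1). In FPKM the most abundant class fell from a sum of 581990 ± 12300 to 449431 ± 20400 (SD, n = 3, exact permutation p = 0.1). The FPKM total of the library was itself lower in high light, at 651369 to 674168 against 741086 to 754563 in control. The sum is part of that total, so the falls are not separate results. As a description of the called genes, the 1669 lowered genes together held 369443 FPKM in control and 192745 in high light, and the 5563 raised genes 103800 and 200122. Genes called lower are high in control by that choice, so these sums are not evidence of a shift.

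**Figure D2:**
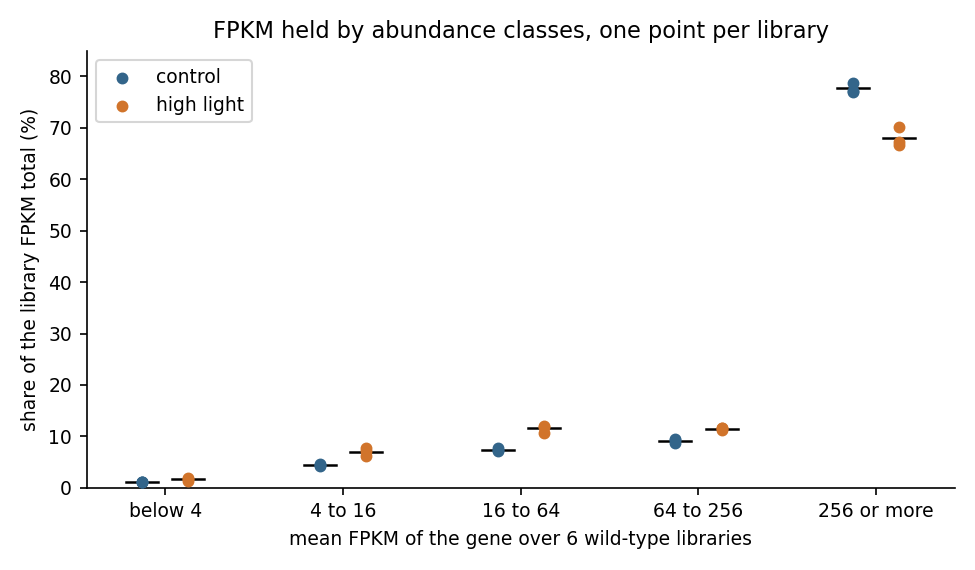
Share of each wild-type library's FPKM total (vertical axis, %) held by 5 classes of genes by mean FPKM (horizontal axis), with a point for each of the 3 control and 3 high light libraries and a bar at the group mean. The class of 256 FPKM or more lies at 77% to 78.8% in control and at 66.6% to 70.1% in high light, and the groups do not overlap.

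Gene length ran along with the direction of change. RefSeq gave a gene span, introns included, for 11175 of the 12081 genes (92.5%), from assembly Chlamydomonas_reinhardtii_v5.5, an earlier build than that of the identifiers. Genes were split by span into 5 groups of about equal size. In the group of the shortest genes, with spans from 466 to 2794 bp, 758 of 2235 genes rose (33.9%) and 544 fell (24.3%). In the group of the longest genes, with spans from 7274 to 62112 bp, 1297 of 2235 rose (58%) and 157 fell (7.02%). The median log2 change was 0.10 in the shortest group and 0.56 in the longest, and the 3 groups between lay at 0.35, 0.39 and 0.49. After median centring 16.7% of the shortest genes were higher and 39.3% lower, against 27.8% and 18.1% of the longest. Quantile normalization gave 472 higher and 804 lower among the shortest, and 835 higher and 321 lower among the longest. Under all 3 scalings the longest genes thus had more rises and fewer falls than the shortest. Median centring moves all genes by the same amount, so it could not alter the difference in log2 change between the groups.

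Abundant genes were mostly short, with 144 of 225 genes of 256 FPKM or more in the shortest group and 1 in the longest. The difference by span was also seen among genes of similar abundance. From 4 to 16 FPKM 36.4% of 795 short genes rose and 18.2% fell, against 64.8% and 6.9% of 840 long genes. After centring the short genes had 18.1% higher and 34.1% lower, and the long ones 36.5% and 14.9%. From 16 to 64 FPKM 42.3% of 544 short genes rose and 22.2% fell, against 63.3% and 9.29% of 226 long ones. After centring these were 21.3% higher and 34.6% lower for the short genes, and 43.4% and 18.6% for the long ones. Below 4 FPKM 21.6% of 522 short genes rose and 29.9% fell, against 52% and 6.54% of 1146 long ones. After centring 9% of these short genes were higher and 47.5% lower, and 18% of the long ones were higher and 20.3% lower. These differences between groups of genes are descriptions, since genes are not replicates. The vip1-1 libraries, which were not used for these classes, gave percentages with the same order. In vip1-1 high light raised 26% of the shortest and 50% of the longest genes and lowered 9.71% and 0.984% of them, beside 38.3% raised and 4.21% lowered over all genes (42.5% in either direction). After centring, 7.05% of all genes were higher in vip1-1 high light and 11.2% lower.

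Chromosomes varied within a narrow range. Over the 17 chromosomes, with 155 to 1242 tested genes each, 42.6% to 53.4% of genes rose and 11.1% to 15.7% fell as deposited, while 21% to 31.4% were higher and 22.4% to 31.6% lower after centring. The highest share of raised genes and the highest median log2 change, 0.55, belonged to chromosome 4, where 175 of 328 genes rose. The lowest median, 0.36, and the highest share of lowered genes belonged, as deposited, to chromosome 12. After centring 31.4% of the genes of chromosome 4 were higher and 25% lower, against 21.7% and 28% on chromosome 12. Whether chromosomes differed was not tested.

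Genes of the organelle genomes, marked by the prefixes Cp and Mt in the annotation's identifiers, were few among these poly(A)-selected libraries. The chloroplast genome encodes core proteins of the photosystems and of the plastid's own gene expression, and 23 of its 74 listed genes passed the filter. One of these 23 rose (4.35%, against 46% of all genes) and none fell (limma adjusted p under 0.05; limma with only the 6 wild-type libraries called 2). The 23 genes moved together between libraries of 1 group. In control replicates 1, 2 and 3 the median over the 23 genes was 5.1, 0.836 and 1.27 FPKM, and in high light replicates 1, 2 and 3 it was 2.03, 8.45 and 3.25 FPKM. Control replicate 1 was the highest control in all 23 genes, and high light replicate 2 was the highest high light library in all 23. The summed FPKM of control replicate 1 was 3.99 times the mean of the other controls, and that of high light replicate 2 was 2.48 times the mean of the other high light libraries. Mature organelle transcripts mostly lack the poly(A) tails by which these libraries were selected, and what part this had in the spread was not tested. Chloroplast-encoded transcripts made up 0.0105% to 0.0832% of the FPKM total, 0.0237% ± 0.02 in control and 0.0505% ± 0.029 in high light (SD, n = 3, exact permutation p = 0.3).

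The chloroplast gene that rose stood at 1.84, 0.479 and 1.58 FPKM in control replicates 1, 2 and 3 and at 5.82, 12 and 6.41 FPKM in high light. Its lowest high light value was above its highest control value, and its log2 change was 1.97 (limma adjusted p = 0.00318, or 0.0165 after centring). With control replicate 2 below 1 FPKM, it passed the filter only with the help of its high light libraries, so its rise is a description. The most abundant chloroplast gene did not separate the groups. Its control values were 115, 26.1 and 30.9 FPKM, and its high light values 59.9, 167 and 91.7 FPKM (limma adjusted p = 0.275). Without control replicate 1, 4 of the 23 genes were higher in high light.

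The mitochondrial genome of this alga encodes subunits of the respiratory chain, and 4 of its 8 listed genes passed the filter. Of these, 3 were called higher as deposited (against 46% of all genes) and 1 after centring (against 23.8%), by limma at an adjusted p under 0.05. In all 4 every high light library was above every control library, a separation found in 50.9% of all tested genes. In each of the 4 genes at least 1 control was below 1 FPKM and every high light library was above it. All 4 thus passed the filter only with the help of their high light libraries, so these counts are descriptions. The most abundant stood at 1, 1.21 and 0.895 FPKM in control replicates 1, 2 and 3 and at 3.15, 4.85 and 4.29 FPKM in high light, a log2 change of 1.31 (limma adjusted p = 0.00281, or 0.0343 after centring). Over the 4 genes controls ranged from 0.388 to 1.48 FPKM and high light libraries from 1.59 to 4.85 FPKM. Control replicate 1 was the highest control for 1 of the 4 genes, and high light replicate 2 was the highest high light library for 3. The number of calls was 3 in each of the 6 fits that left out a wild-type library. In vip1-1 the median log2 change was -0.11 for the mitochondrial genes, against 1.00 in the wild type, and -0.72 for the chloroplast genes, against 0.80, and for no single gene of either genome did the test of the difference pass the threshold.

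**Figure D3:**
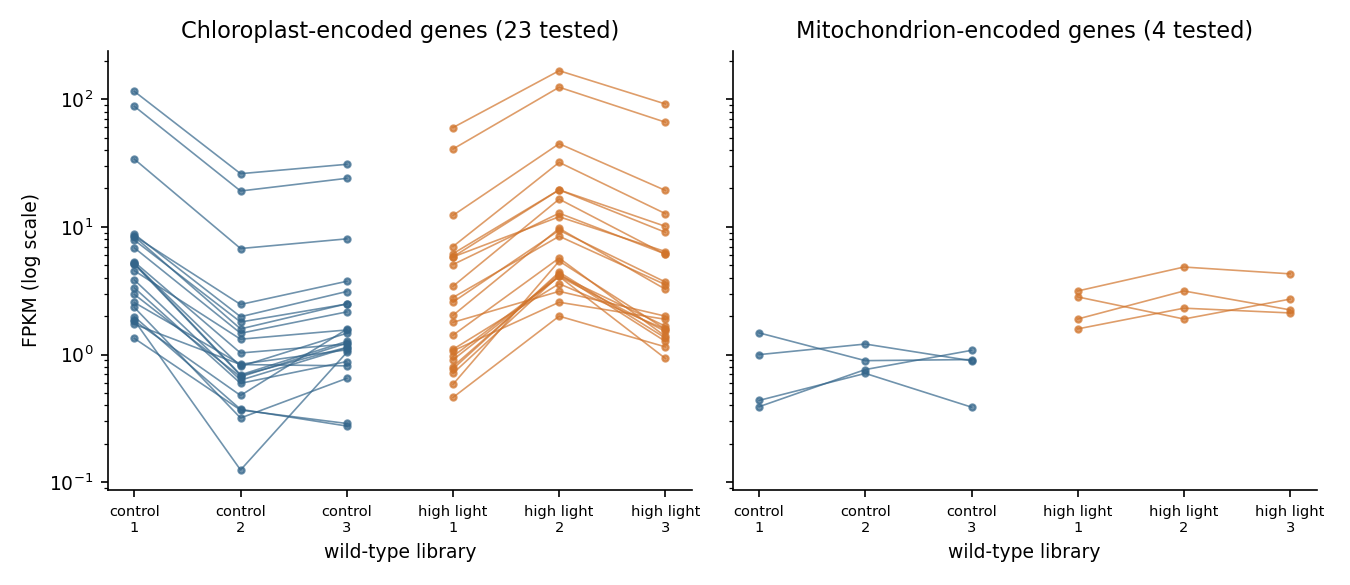
FPKM on a log axis of the 23 chloroplast-encoded and 4 mitochondrion-encoded genes in each wild-type library, a line for each gene joined within a group only to follow the gene. The chloroplast genes move together between libraries of 1 group, with control replicate 1 and high light replicate 2 highest, while the mitochondrial genes lie at 0.388 to 1.48 in control and 1.59 to 4.85 in high light.

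Some genes lay on opposite sides of 1 FPKM in the groups. In 398 genes all 3 controls were below 1 and all 3 high light libraries at or above 1, and in 269 genes the reverse held. Both sets passed the filter through 1 group only, so their change in the wild type is a description. Most stayed low, with a median group mean of 2.08 FPKM in high light for the first set and of 2.3 FPKM in control for the second. In 3 genes of the first set and 7 of the second the higher group had at least 10 FPKM in every library. Of the 269 genes, 36 were listed at 0 in all 3 high light libraries. In the vip1-1 libraries, which took no part in the choice, 217 of the 398 genes rose (54.5%, against 38.3% of all genes) and 2 fell. For the 269 genes, 48 fell (17.8%, against 4.21%) and 8 rose (limma adjusted p under 0.05). These calls use a variance fitted over all 12 libraries, the wild-type ones included. The full pattern of the wild type, with 3 libraries below and 3 at or above 1 FPKM, was seen in vip1-1 for 80 of the 398 genes and 8 of the 269.

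Of the pair of rises taken by the naming rule, the first was that of Cre01.g053000_4532.v6.1, a gene of chromosome 1. It had 1.33, 1.56 and 1.23 FPKM in control replicates 1, 2 and 3 and 127, 35.7 and 218 FPKM in high light. The controls were almost alike, and the high light libraries all lay far above them but spread widely, with replicate 2 lowest. The log2 change was 5.41 (SE 0.51, limma adjusted p = 2.21e-05), or 5.01 above the median gene. Without high light replicate 2 the log2 change was 6.14. The nearest tested neighbour, directly beside it in gene order, went from 1.07 to 2.69 FPKM in mean, a log2 change of 0.81.

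The other was that of Cre05.g234661_4532.v6.1 on chromosome 5. Control replicates 1, 2 and 3 had 11.3, 9.16 and 6.37 FPKM, and high light replicates 352, 539 and 326 FPKM. Here high light replicate 2 was the highest library, the opposite of its place in the gene before. The log2 change was 5.35 (SE 0.30, limma adjusted p = 1.89e-06). The order of these rises reversed without high light replicate 3, where they were 4.86 for Cre01.g053000_4532.v6.1 and 5.49 for Cre05.g234661_4532.v6.1. It also reversed without high light replicate 1, without control replicate 1, after quantile normalization and with a pseudocount of 5. The neighbouring gene on the tested side went from a mean of 6.29 to 12.3 FPKM, so the large change did not extend to it.

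The largest fall was that of Cre12.g546550_4532.v6.1 on chromosome 12. It had 152, 205 and 65.8 FPKM in control replicates 1, 2 and 3 and 0.112, 0.253 and 0.16 FPKM in high light. No high light library reached even 1 FPKM, and the log2 change was -6.77 (SE 0.69, limma adjusted p = 3.22e-05). Both genes that flank it in the order of the RefSeq assembly fell as well. For the one before it the controls had 286, 400 and 246 FPKM and the high light libraries 2.15, 6.67 and 3.94 FPKM, a log2 change of -5.95 (limma adjusted p = 3.37e-05). For the one after it the controls had 37.9, 50.9 and 21.8 FPKM and the high light libraries 1.22, 0.112 and 0.939 FPKM, a log2 change of -4.41 (limma adjusted p = 0.000826). In all 3 genes control replicate 2 was highest and control replicate 3 lowest, and no high light library overlapped a control library. Changes of this size ended there. The second gene before it fell from a mean of 2.4 to 0.747 FPKM (limma adjusted p = 0.0391), the third before it rose from 4.51 to 7.6 FPKM as deposited but was not called after centring (limma adjusted p = 0.000284 and 0.15), and the second after it went from 1.26 to 2.42 FPKM, which did not pass the threshold (limma adjusted p = 0.246). Neighbouring genes with similar sequence could share reads, and the sequences of these 3 genes were not compared.

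**Figure D4:**
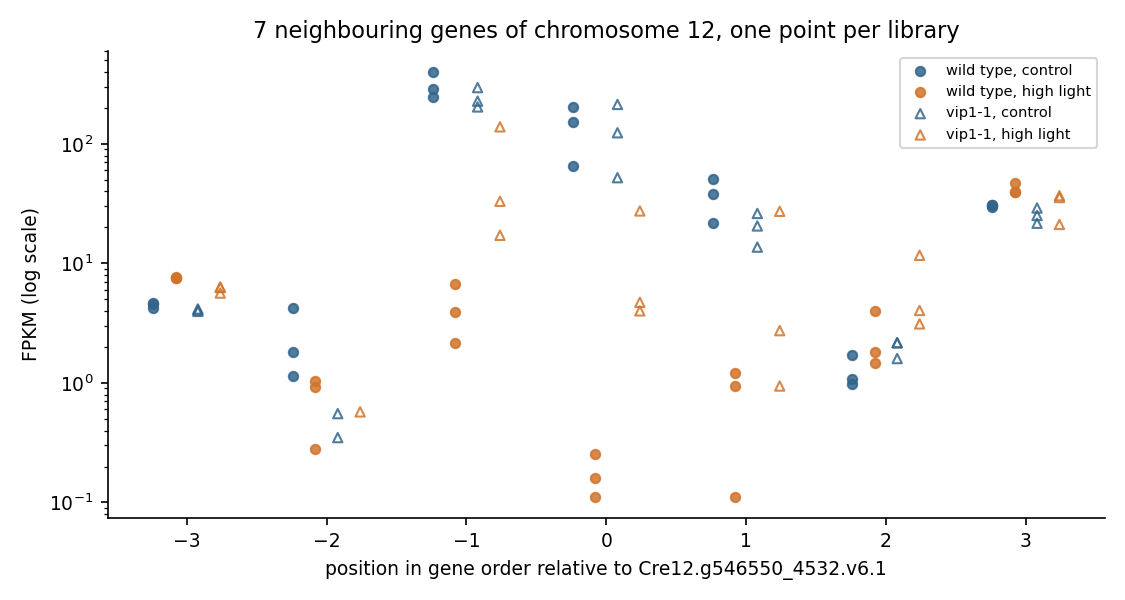
FPKM on a log axis of 7 genes that follow each other on chromosome 12, by position relative to Cre12.g546550_4532.v6.1, with a point for each library of the wild type (circles) and vip1-1 (triangles); values of 0, all at position -2 in vip1-1, are not drawn. At positions -1, 0 and 1 the wild-type high light libraries lie between 0.112 and 6.67 FPKM and the controls between 21.8 and 400 FPKM.

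The second largest fall was that of Cre24.g755997_4532.v6.1, whose identifier carries the number 24, beyond the 17 chromosomes. Its control values were 145, 163 and 100 FPKM in replicates 1, 2 and 3. In high light the values were 1.04 FPKM in replicate 1, 0.788 FPKM in replicate 3, and a listed 0 in replicate 2. Every control thus stood far above every high light library, with a change of -6.45 on the log2 scale (SE 0.59, limma adjusted p = 1.95e-05).

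Adjacent genes were compared over the whole gene order. Among 7724 pairs of adjacent tested genes, a lowered gene was followed by another lowered gene in 17.2% of cases, while 14% of all following genes were lowered. For raised genes the values were 46.4% and 44.7%. For changes of at least 4-fold after centring, a lowered gene was followed by another such gene in 7.83% of 332 cases (26 pairs), against 4.03% of all following genes. For raised genes this was 8.33% of 108 cases (9 pairs), against 1.46%. These percentages are descriptions of gene order and were not tested.

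The large changes of the wild type were then read in vip1-1. Its log2 changes share no library with those of the wild type, but its calls use a variance fitted over all 12 libraries. Choosing genes called in the wild type favours a small variance, and with it a call in vip1-1. Of the 372 genes raised at least 4-fold in the wild type, 281 rose in vip1-1 and 2 fell, and of the 252 lowered at least 4-fold, 123 fell and 2 rose. Of the 68 genes raised at least 8-fold in the wild type, 47 also rose in vip1-1 (69.1%, against 38.3% of all genes) and none fell, and 65 had a change of the same sign. Of the 70 genes lowered at least 8-fold, 48 fell in vip1-1 (68.6%, against 4.21% of all genes) and none rose, and 66 had the same sign (limma adjusted p under 0.05). Their median log2 change was 3.54 in the wild type and 1.69 in vip1-1 for the raised genes, and -3.58 and -1.66 for the lowered ones. Over all tested genes the median in vip1-1 was 0.38, so a positive sign was the more common one there. Since the genes were chosen for a large change in the wild type, a smaller value in vip1-1 follows in part from the choice. The test of the difference itself passed the threshold in 30 of the 68 raised genes, all more negative in vip1-1, and in 18 of the 70 lowered ones, all more positive, against 5.19% of all genes more negative, 3.92% more positive and 9.11% in either direction. That test uses the wild-type libraries by which the genes were chosen, so these counts are descriptions.

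**Figure D5:**
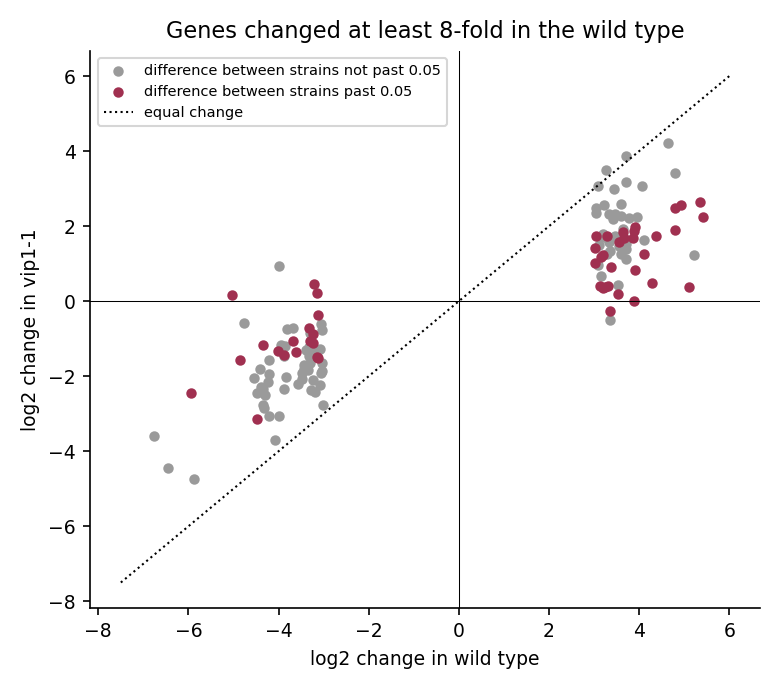
Log2 change of the 68 raised and 70 lowered genes with a change of at least 8-fold in the wild type (horizontal axis) against their log2 change in vip1-1 (vertical axis), with the line of equal change dotted; red marks genes whose light effect differed between the strains at an adjusted p under 0.05. The same sign is seen in 65 and 66 of them, and the medians are 1.69 and -1.66 in vip1-1.

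On chromosome 12, the neighbour before Cre12.g546550_4532.v6.1 had 204, 296 and 228 FPKM in vip1-1 controls and 139, 33.1 and 17.2 FPKM under high light. Every vip1-1 high light library was below the vip1-1 controls and above the 2.15 to 6.67 FPKM of the wild type in high light. Its light effect differed between the strains by 3.51 on the log2 scale (limma interaction, adjusted p = 0.0316). The gene was picked for lying beside the largest fall and the test uses the same wild-type libraries, which favours a difference of this sign. For Cre12.g546550_4532.v6.1 itself the vip1-1 libraries had 52.2, 124 and 214 FPKM without and 27.5, 4.73 and 4.01 FPKM with high light, and the difference of 3.18 did not pass the threshold (adjusted p = 0.0673). The gene after it had 13.7, 20.6 and 26.2 FPKM in the vip1-1 controls and 27.3, 2.74 and 0.943 FPKM under high light. High light replicate 1 was thus above all vip1-1 controls, the fall in vip1-1 was not called (limma adjusted p = 0.088), and the difference between the strains was 2.61 (adjusted p = 0.171).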

How the data were processed

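The authors deposited FPKM values of every gene in 12 libraries, per the file headers. HISAT2 and StringTie are named in the submitters' processing notes; versions, build and filters are not given in the sources used here. Identifiers end in _4532.v6.1, an annotation release of strain CC-4532. Depth is unknown, since FPKM values give no counts, so precision rests on 3 replicates. Columns were matched by library name.

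Values were transformed to log2(FPKM + 1). limma 3.58.1 in R 4.3.3 fitted 4 group means over 12 libraries, with a trended variance, to genes that reached 1 FPKM in 3 or more of the 6 wild-type libraries. Tests were two-sided, with Benjamini-Hochberg adjustment over all 12081 genes at 0.05. Fold changes understate weakly expressed genes. Single values were compared by exact permutation (scipy 1.17.1). RefSeq locus tags matched 15386 of 17693 identifiers by chromosome and number.

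The naming rule took the 2 largest rises and 2 largest falls among called genes whose direction held after centring, whose libraries did not overlap and whose higher group had a mean of at least 10 FPKM with no 0. Pathway and marker lists could not be matched without symbols and were not used. Members, classes and rules were chosen with earlier results of these data known; abundance classes, gene span and neighbours were chosen after the values were seen. P-values measure the spread between these libraries. Plots used Python 3.11.15 and matplotlib 3.10.9.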

Additional observations from a re-analysis of the deposited data

Results flagged for a closer look

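The light effect of Cre01.g053000_4532.v6.1 differed between the strains, with a log2 change in vip1-1 that was lower than in the wild type (-3.18, SE 0.72, limma interaction, adjusted p = 0.0224). In vip1-1 it had 7.82, 10.8 and 7.42 FPKM in control replicates 1, 2 and 3 and 32.9, 45.4 and 57 FPKM in high light. The vip1-1 controls thus lay above all wild-type controls, and the gene also rose in vip1-1 (log2 change 2.23, limma adjusted p = 0.00722).

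The light effect of Cre05.g234661_4532.v6.1 also differed between the strains (-2.70, SE 0.42, limma interaction, adjusted p = 0.00545). Its vip1-1 controls, at 7.84, 8.38 and 12.1 FPKM, overlapped the wild-type controls, while its vip1-1 high light libraries, at 52.8, 50.9 and 95.1 FPKM, were all below the lowest wild-type high light value of 326 FPKM. It rose in vip1-1 as well (log2 change 2.65, limma adjusted p = 0.000437). Both genes were chosen for their rise in the wild type, which favours a difference of this sign.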

How the results depend on the processing

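With all libraries as deposited 7232 genes were called, 5563 higher and 1669 lower, and 3290 of them changed at least 2-fold. Median centring gave 2871 higher and 3275 lower, and quantile normalization 3567 and 2919. Testing only genes with a mean FPKM of at least 5 gave 4543 calls, 3539 higher and 1004 lower, from fewer genes tested. A threshold of 0.01 left 1070 lower genes. A pseudocount of 5, which shrinks changes of weakly expressed genes, left 1554 genes changed at least 2-fold. Leaving out 1 wild-type library at a time gave 6052 to 7477 calls, 4782 to 5911 higher, 1270 to 1626 lower and 2903 to 3628 changed at least 2-fold. The labels do not say whether same-numbered control and high light libraries were handled together. Correlations of their deviations in the wild type were -0.154, -0.167 and -0.144, against 0.0387 to 0.17 between libraries of different number. The replicate block gave 7002 calls. The 4 genes given by identifier kept their direction and call under every alternative setting, in all 72 combinations of gene and setting. Their limma adjusted p was at most 0.000761. The alternatives for gene lists were not run because no list could be matched. Depth is unknown, so no limit of detection can be given.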

Other observations

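The longest run of adjacent genes lower after median centring held 9 genes on chromosome 6, found by searching the gene order and described without a test. The log2 changes ranged from -0.51 to -3.05 on the centred scale. In 8 of the 9 the 3 high light libraries were below the 3 controls as deposited, a separation found in 16.7% of all tested genes. The run was chosen for being lower, so this count is a description. As deposited 7 of the 9 were called lower, and the longest run of lowered genes held 6. The last gene of the run had 12.9, 14.5 and 16.9 FPKM in control replicates 1, 2 and 3 and 1.32, 2.02 and 1.39 FPKM in high light. The second went from 45.7, 52.4 and 63.6 FPKM in the controls to 39.4, 39.3 and 25 FPKM. In the first the groups overlapped, with 8.05, 8.93 and 8.57 FPKM in the controls and 9.08, 7.23 and 7.82 FPKM in the high light libraries. The median log2 change of the 9 genes as deposited was -0.78 in the wild type and -0.22 in vip1-1.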
